A study of Homo sapiens with 39 samples.

Results

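The 10 genes described here are targets of the transcription factor p53 that hold back the cell cycle or damp growth and stress signalling: CDKN1A, BTG2, GADD45A, PLK2, PLK3, SESN1, SESN2, PRKAB1, DUSP14 and GDF15. They were chosen by known function, as the rows of the expression table whose gene symbol matches 1 of the 10 names. Earlier results of these data were known when they were chosen. All 10 were found among 20802 gene targets, with 1 amplicon target each. They were read in 39 libraries of HepaRG™ cells, and every treated library was compared with the control of its own vehicle and set.

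p53 is stabilised when DNA is damaged and then binds response elements near its target genes. CDKN1A encodes p21, which inhibits cyclin-dependent kinases. BTG2 is an antiproliferative adaptor of the mRNA deadenylation machinery, and GADD45A is a stress protein that binds PCNA, CDK1 and a kinase upstream of p38 and JNK. PLK2 and PLK3 are polo-like kinases linked to stress checkpoints, unlike PLK1, which drives mitosis. The sestrins SESN1 and SESN2 restrain mTORC1 signalling, and PRKAB1 encodes the β1 subunit of AMPK, the energy-sensing kinase. DUSP14 is a phosphatase that acts on MAP kinases. GDF15 is a secreted cytokine that the liver releases under stress, and it is also a target of the integrated stress response factor ATF4, as is SESN2.

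HepaRG™ is an established human hepatoma line whose differentiated cultures hold cells that resemble hepatocytes and cholangiocytes and keep drug-metabolising activity. Differentiated cultures received a chemical or its vehicle daily for 3 days, and RNA was taken 7 h after the last addition. The 5 DNA damage-inducing (DDI) chemicals were aflatoxin B1 (AFB1; 0.25, 1 and 2.5 µM), 2-nitrofluorene (2NF; 10, 50 and 250 µM), cisplatin (CISP; 2, 5 and 10 µM), etoposide (ETP; 0.5, 2.5 and 10 µM) and methyl methanesulfonate (MMS; 50, 100 and 200 µM). AFB1 and 2NF need metabolic activation, CISP crosslinks DNA, ETP traps topoisomerase II and MMS alkylates bases. The 5 non-DDI chemicals were colchicine (COL; 0.05, 0.1 and 0.3 µM), 2-deoxy-D-glucose (2DG; 1.25, 5 and 10 mM), sodium ascorbate (ASC; 1, 2 and 10 mM), ampicillin trihydrate (AMP; 1, 3 and 10 mM) and sodium chloride (NaCl; 1, 2.5 and 10 mM). COL, a microtubule poison, disturbs chromosome segregation without damaging DNA directly.

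Each library was made from RNA pooled from 3 cultures, so a condition is 1 library and a single ratio has no replicate check. AFB1, 2NF, CISP, ETP and COL were dissolved in DMSO, MMS in water, and the other chemicals in media. AFB1 and COL shared 1 of the 4 DMSO controls. There were also 4 media controls and 1 water control. Because no DDI chemical was given in media, a difference in response between vehicles and a difference between the chemical classes cannot be told apart in full. Library totals ran from 8504699 to 16425527 counts, and the 10 genes had 80 to 11524 counts in a library. Counting error alone gave a log2 ratio a standard error of 0.020 to 0.20, largest for PLK3. RPM is the count of a target per 1000000 counts of its library. Since amplicons differ in efficiency, RPM values were compared between libraries for 1 gene and not between genes. In RNA from whole cultures, fewer cells of a type and less RNA per cell cannot be told apart.

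Across the 15 DDI libraries, 50 of the 150 values of the 10 genes (33.3%) were at least 1.5-fold above the matched control, against 7.29% of the values of all 13812 genes tested. In the 15 non-DDI libraries the number was 12 of 150 (8.0%), against 5.89% of all values. Values at least 1.5-fold below the control numbered 3 in each class. The fold was taken on log2(RPM + 1), a scale that understates changes of low values. Without AMP the non-DDI share was 3.33%. The controls themselves differed: DMSO controls spanned 1.10 log2 units for PLK3 and 1.02 for GDF15, but 0.29 for CDKN1A and 0.17 for GADD45A. Set against the highest of all 9 controls instead, 66 DDI values (44.0%) and 14 non-DDI values (9.33%) still lay above it, compared with 15% and 10.5% of the values of all genes. In the heat map of log2 ratios the DDI side is the warmer one, and the rows do not share 1 pattern.

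**Figure D1:**
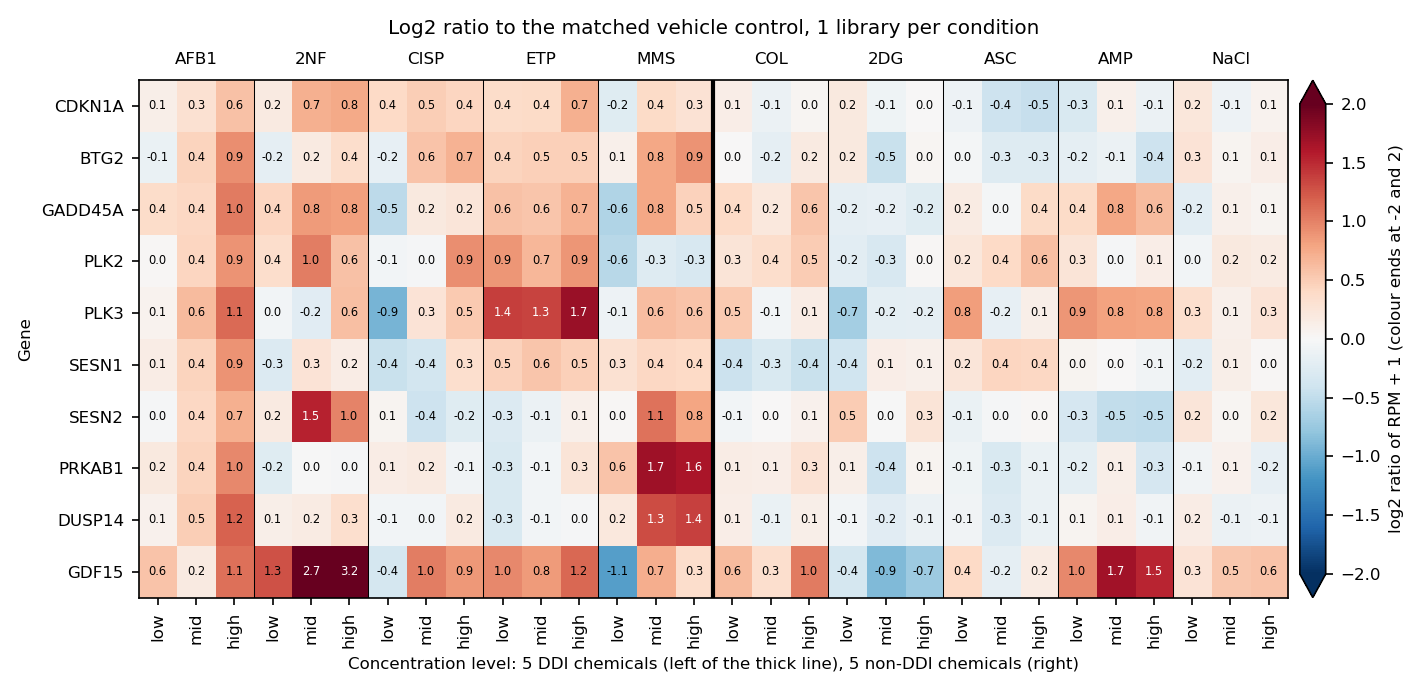
Log2 ratio of RPM + 1 to the matched vehicle control for the 10 genes (rows) in 30 treated libraries (columns, low to high within each chemical), with 1 library per cell and the rounded value printed. AFB1 at the high concentration is at 0.59 or more in every row, GDF15 in 2NF reaches 3.25, and PRKAB1 and DUSP14 stand out in MMS at mid and high.

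At the high concentration, all 10 genes were at least 1.5-fold above control in AFB1, where 10.2% of all genes were. The number was 6 in 2NF (10.6% of all genes), 5 in ETP (5.56%), 4 in MMS (14.7%) and 3 in CISP (3.66%). Among non-DDI chemicals it was 3 in AMP (8.04%), 1 in COL (12%), 1 in ASC (11.5%), and 0 in 2DG (1.66%) and NaCl (2.58%). AFB1 and COL were measured against the same control library. The median log2 ratio of the 10 genes in AFB1 was 0.10 at low, 0.44 at mid and 0.95 at high, and 7 of the 10 were higher at each successive concentration. This count was 3 in 2NF, 2 in MMS, 1 in ETP and 0 in CISP. It was 1 in COL, ASC and NaCl and 0 in 2DG and AMP. Its share over all genes was not computed. In MMS the median was -0.04, 0.75 and 0.52, so that the mid library stood highest. CISP had medians of -0.11, 0.19 and 0.38. ETP was nearly flat, with 0.45, 0.51 and 0.59.

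Promoter sequence is shown for the genes in which letters close to the p53 consensus were found near the start of transcription. RefSeq windows (GRCh38.p14) that cover 250 bases before and 50 after a start were at hand for 9 of the 10 genes, in 11 windows. They were searched for the p53 consensus decamer, and for a pair of decamers without spacer and with at most 3 mismatches outside the invariant C and G of each core. The motif reads the same on both strands, and a pair may contain an exact decamer. An exact decamer was in 6.63% of all 35116 windows and a pair in 1.12%. Among the 11 windows, 2 held a decamer (PLK2 and 1 of 3 SESN1 windows) and 2 held a pair (SESN1 and GDF15). Capitals mark the match, and each stretch has 30 bases.
PLK2 at chr5:58460199-58460228 on the minus strand, decamer at -132 to -123: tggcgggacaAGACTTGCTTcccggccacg
SESN1 at chr6:109009013-109009042 on the minus strand, pair at -49 to -30 with 3 mismatches: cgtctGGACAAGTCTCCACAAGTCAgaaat
GDF15 at chr19:18386178-18386207 on the plus strand, pair at 29 to 48 with 3 mismatches: acctgcacAGCCATGCCCGGGCAAGAACtc
A match is a description of the letters. These windows are short, and response elements further away were not searched.

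CDKN1A (target AMPL18336733), the p21 gene, had 505 to 747 RPM in the controls (median 619). In 2NF it went from 613 RPM in the control to 696, 1003 and 1039 RPM at low, mid and high. In ETP it went from 619 to 795, 811 and 1013 RPM. In CISP the control had 555 RPM and the treated libraries 733, 783 and 744 RPM. These 3 chemicals were thus above their controls at every concentration, and CISP was level from low to high. In MMS the values were 747 RPM in the control and 633, 978 and 911 RPM after treatment, so that the low library was below its control. In AFB1 they were 505 RPM and then 546, 624 and 760.5 RPM, also above the control at every concentration. The 15 non-DDI libraries lay between 463 RPM (COL at 0.1 µM) and 726 RPM (2DG at 1.25 mM), with a median of 565. The classes overlapped, but 9 DDI libraries and 0 non-DDI libraries exceeded all 9 controls. The highest ratio of CDKN1A was 1.69-fold (2NF at high, log2 ratio 0.76).

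BTG2 (AMPL13497337), the antiproliferative adaptor, had 57.2 to 86.1 RPM in the controls (median 72.2). In MMS it was at 86.1 RPM in the control and 92.8, 148 and 161 RPM at low, mid and high. In AFB1 it was at 68.2 RPM and then 61.9, 93.2 and 131 RPM. Both chemicals ended close to a log2 ratio of 0.9 (0.93 in AFB1 and 0.89 in MMS). In CISP the control had 57.2 RPM and the treated libraries 51.0, 85.6 and 93.4 RPM. In ETP the values were 67.9 RPM and then 92.6, 95.1 and 94.8 RPM, a plateau reached at the low concentration. In 2NF they were 82.1 RPM and then 72.3, 93.2 and 105 RPM. BTG2 exceeded all 9 controls in 11 DDI libraries, the most of the 10 genes, and in 0 of 15 non-DDI libraries, which ran from 54.1 to 86.1 RPM (median 68.8).

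GADD45A (AMPL10343714), which binds CDK1 and PCNA, was at 87.1 to 149 RPM in the controls (median 101). In AFB1 it was at 113 RPM in the control and 145, 150.3 and 234 RPM at low, mid and high. In 2NF it was at 101 RPM and then 136, 182 and 178 RPM, and in ETP at 101 RPM and then 152, 148 and 164 RPM. AFB1, ETP and 2NF were above control in each library. In MMS the sequence was 142, 93.2, 244 and 196 RPM, with a log2 ratio of -0.60 at low and 0.78 at mid. In CISP it was 112, 77.6, 129 and 133 RPM. GADD45A also stood above control in COL, at 149, 131 and 167 RPM against 113 RPM, and in AMP, at 114, 150.2 and 135 RPM against 87.1 RPM. The highest control was that of 2DG (149 RPM), and 8 DDI and 2 non-DDI libraries exceeded it. The 15 non-DDI libraries ran from 84.2 to 167 RPM (median 131), within the DDI range of 77.6 to 244 RPM.

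PLK2 (AMPL12811642) had 91.6 to 203 RPM in the controls (median 119). In ETP it was at 91.6 RPM in the control and 169, 145 and 169.6 RPM at low, mid and high. In AFB1 it was at 144 RPM and then 146, 196 and 269 RPM. In 2NF the values were 96.3 RPM and then 123, 197 and 145 RPM, highest at mid. CISP differed from these in its shape, since PLK2 stayed at 97.4 and 100.2 RPM at low and mid, against 102 RPM, and was at 195 RPM only at high. MMS was the exception, with 202 RPM in its water control and 137, 169.6 and 162 RPM after treatment. All 3 log2 ratios were thus below 0 (-0.56, -0.25 and -0.32). That control was the only one in water and stood next to the highest of the 9 (203 RPM, 2DG). The 3 treated values lay within the range of the controls. Non-DDI libraries ran from 117 to 206 RPM, with a median of 167 that was above the DDI median of 162. AFB1 at high was the 1 DDI library above all 9 controls. COL at high (206 RPM) and 2DG at high (205.5 RPM) exceeded them too.

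PLK3 (AMPL29534604) had the fewest counts, 80 to 410, and 6.36 to 23.0 RPM in the controls (median 13.3). In ETP it was at 6.36 RPM in the control and 18.2, 17.7 and 23.3 RPM at low, mid and high. The ETP control was the lowest of the 9. Against the mean of the 4 DMSO controls the ETP log2 ratios of 1.39, 1.35 and 1.72 became 0.73, 0.69 and 1.07. In AFB1 the values were 12.0 RPM and then 12.7, 19.2 and 27.6 RPM. In MMS they were 21.02 RPM and then 19.5, 32.9 and 31.8 RPM, the mid library being the highest of the 39. In 2NF they were 14.8 RPM and then 14.2, 12.5 and 22.8 RPM, and in CISP 10.97 RPM and then 5.26, 13.4 and 16.2 RPM. Non-DDI libraries ran from 11.5 to 26.4 RPM, with a median of 19.5 that was above the DDI median of 18.2 and the median of the controls. Of the non-DDI libraries, 3 exceeded all 9 controls (ASC at low, NaCl at low and high) against 4 DDI libraries. PLK3 was at least 1.5-fold above control in 7 DDI and 4 non-DDI libraries. The latter were ASC at low and AMP at each concentration, whose control had 10.7 RPM.

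**Figure D2:**
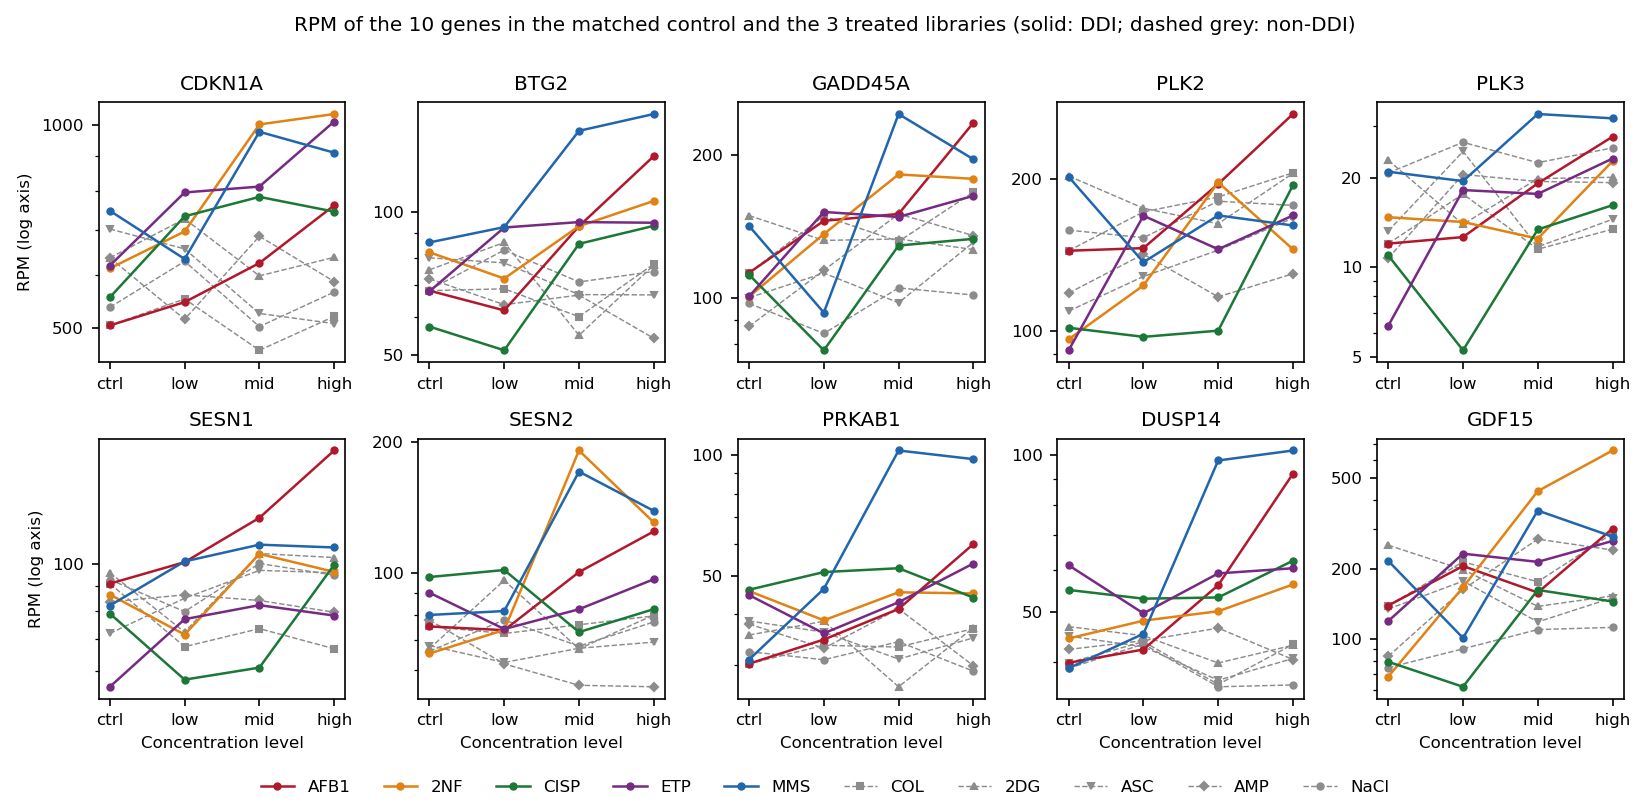
RPM (log axis, scaled per gene) in the matched control and at the low, mid and high concentration, 1 library per point, with coloured solid lines for DDI and dashed grey lines for non-DDI chemicals. PRKAB1 and DUSP14 are at 97.5 to 103 RPM in MMS at mid and high, next to which DUSP14 in AFB1 at high is at 91.9 RPM, GDF15 is highest in 2NF, and the control points of PLK2, PLK3 and GDF15 are widely spread.

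SESN1 and SESN2 were highest in different chemicals. SESN1 (AMPL24656077) had 55.8 to 95.8 RPM in the controls (median 83.4), and in AFB1 it went from 91.0 RPM to 101, 124 and 171 RPM. In MMS it was at 82.0 RPM in the control and 101, 109.5 and 108 RPM after treatment, nearly level. In 2NF the values were 86.4 RPM and then 71.4, 105 and 96.2 RPM, on both sides of the control. In CISP they were 78.9 RPM and then 57.7, 61.1 and 99.6 RPM. In ETP they were 55.8 RPM, the lowest of the 9 controls, and then 76.9, 82.2 and 78.2 RPM. The ETP log2 ratios of 0.46, 0.55 and 0.48 were 0.00, 0.10 and 0.03 against the mean of the 4 DMSO controls. In COL the gene was below control at each concentration, at 67.5, 73.5 and 66.8 RPM. Non-DDI libraries ran from 66.8 to 105 RPM (median 84.9), and 5 of them were above all 9 controls, against 9 DDI libraries.

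SESN2 (AMPL14455730) had 65.3 to 97.9 RPM in the controls (median 75.4). In 2NF it was at 65.3 RPM in the control and 74.0, 191 and 131 RPM at low, mid and high. In MMS it was at 80.1 RPM and then 81.8, 171 and 139 RPM. Both chemicals had their highest value at mid, with log2 ratios of 1.53 and 1.08. In AFB1 the values were 75.4 RPM and then 73.9, 101 and 125 RPM. In CISP they were 97.9 RPM and then 102, 73.2 and 82.6 RPM, and in ETP 90.1 RPM and then 74.4, 82.6 and 96.8 RPM. The crosslinking agent and the topoisomerase poison thus gave no library 1.5-fold above control for SESN2. In AMP the gene was below control throughout, at 61.9, 55.2 and 54.8 RPM against 78.0 RPM, and 0 of the 15 non-DDI libraries (54.8 to 96.2 RPM, median 69.4) exceeded all 9 controls, against 7 DDI libraries.

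PRKAB1 (AMPL26926548), the AMPK β1 gene, had 30.1 to 46.1 RPM in the controls (median 37.9). In MMS it was at 30.9 RPM in the control and 46.3, 103 and 97.7 RPM at low, mid and high, a log2 ratio of 1.70 at mid and 1.63 at high. In AFB1 it was at 30.1 RPM and then 34.6, 41.3 and 59.9 RPM. These 2 control libraries were the lowest of the 9. Against the mean of the DMSO controls, AFB1 at high had a log2 ratio of 0.53 in place of 0.97. In 2NF the values were 45.8 RPM and then 38.7, 45.4 and 45.1 RPM. In CISP they were 46.1 RPM and then 51.0, 52.2 and 44.1 RPM, and in ETP 44.7 RPM and then 35.9, 42.9 and 53.6 RPM. PRKAB1 in these 3 chemicals stayed within 1.5-fold of control. The 15 non-DDI libraries had 26.4 to 41.3 RPM (median 33.5), and 0 of them exceeded all 9 controls, against 7 DDI libraries.

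DUSP14 (AMPL12514608), the MAP kinase phosphatase, behaved much like PRKAB1, with 38.9 to 61.4 RPM in the controls (median 44.4). In MMS it was at 38.9 RPM in the control and 45.3, 97.5 and 102 RPM at low, mid and high. In AFB1 it was at 39.9 RPM and then 42.3, 56.2 and 91.9 RPM. The mid and high libraries of MMS and the high library of AFB1 were the 3 that passed 1.5-fold. In 2NF the values were 44.4 RPM and then 48.0, 50.1 and 56.4 RPM. In CISP they were 55.0 RPM and then 52.9, 53.2 and 62.6 RPM, and in ETP 61.4 RPM and then 49.6, 59.2 and 60.6 RPM. Non-DDI libraries covered a narrow range, 35.9 to 46.5 RPM (median 42.8), and 0 of them exceeded all 9 controls, against 4 DDI libraries.

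GDF15 (AMPL30137347), the secreted cytokine, had the widest range of the 10 genes. The controls held 68.3 RPM (2NF) to 255 RPM (2DG), with a median of 119. In 2NF it was at 68.3 RPM in the control and 167, 437 and 657 RPM at low, mid and high, 2.42-fold, 6.33-fold and 9.498-fold higher. The log2 ratios were 1.28, 2.66 and 3.25, or 0.77, 2.16 and 2.74 when taken to the mean of the 4 DMSO controls. In ETP it was at 119 RPM and then 234, 215 and 266 RPM, and in AFB1 at 139 RPM and then 207, 158 and 301 RPM. ETP had a log2 ratio near 1 at every concentration. In CISP the values were 79.2 RPM and then 61.7, 163 and 145 RPM. In MMS they were 217 RPM and then 101, 360.1 and 277 RPM, so that the low library was 1.11 log2 units below its control and the mid library 0.73 above it.

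GDF15 also had the largest non-DDI ratios of the 10 genes. In AMP it was at 83.7 RPM in the control and 163, 270.4 and 243 RPM at low, mid and high. In COL it was at 139 RPM and then 215, 177 and 286 RPM. Against the mean of the controls of the same vehicle, the AMP log2 ratios of 0.96, 1.68 and 1.52 were 0.43, 1.15 and 1.00, and the COL ratios of 0.63, 0.34 and 1.04 were 1.14, 0.85 and 1.55. In 2DG the treated libraries had 199, 138 and 153 RPM against 255 RPM, and that control was the highest of the 9. The direction turned with the control, since the 2DG log2 ratios of -0.35, -0.88 and -0.73 were 0.72, 0.19 and 0.34 against the mean of the media controls. NaCl turned too, from 0.27, 0.54 and 0.58 to -0.42, -0.14 and -0.11. ASC and NaCl stayed within 1.5-fold of the matched control. The classes overlapped at each level, and 6 DDI and 2 non-DDI libraries exceeded all 9 controls.

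Whether a gene rose with the concentration was tested on the counts with the quasi-likelihood F test of edgeR. The fit held all 39 libraries, 9 control sets and a slope per chemical over the steps control, low, mid and high. It left 20 residual degrees of freedom, and p was adjusted with Benjamini-Hochberg over 13812 genes. In AFB1, 4 of the 10 genes rose, against 2.36% of all genes. DUSP14 rose by 0.35 log2 units per step (SE 0.06, adjusted p = 0.000797), BTG2 by 0.31 (SE 0.07, adjusted p = 0.00875), SESN1 by 0.30 (SE 0.08, adjusted p = 0.0154) and PRKAB1 by 0.28 (SE 0.08, adjusted p = 0.0375). The other 6 slopes were 0.15 to 0.31, and 9 of the 10 had an unadjusted p under 0.05, against 16.1% of all genes. AFB1 was the only chemical with SESN1 among its calls. Without the AFB1 library at 2.5 µM no slope passed, at 0.21 for DUSP14, 0.22 for BTG2, 0.26 for SESN1 and 0.20 for PRKAB1. PRKAB1 was also lost without the control (0.30) or the 0.25 µM library (0.28), and over linear concentration.

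In 2NF, 3 genes rose, against 4.30% of all genes. GDF15 rose by 1.10 log2 units per step (SE 0.18, adjusted p = 0.000128), SESN2 by 0.44 (SE 0.12, adjusted p = 0.0168) and CDKN1A by 0.26 (SE 0.07, adjusted p = 0.0200). GADD45A and PLK2 had slopes of 0.27 and 0.24, with adjusted p = 0.161 and 0.199 by edgeR. Without the 2NF control none of the 3 passed, although the slopes were 0.96, 0.38 and 0.27. SESN2 did not pass without the 10 µM library (0.39) and CDKN1A did not pass without the 250 µM library (0.33), where PLK2 passed instead. Over concentration as a linear share of the highest one, none of the 3 passed. PRKAB1 had a slope of -0.01 in 2NF.

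In MMS, 3 genes rose, against 5.10% of all genes. PRKAB1 rose by 0.59 log2 units per step (SE 0.09, adjusted p = 0.000137), DUSP14 by 0.49 (SE 0.07, adjusted p = 5.78e-05) and BTG2 by 0.30 (SE 0.08, adjusted p = 0.0129). SESN2 had a slope of 0.31 (edgeR adjusted p = 0.0623), and PLK2 had one of -0.11. Leaving out the MMS control ended the calls of PRKAB1 (0.51) and BTG2 (0.37), and leaving out the 200 µM library ended that of BTG2 (0.35). DUSP14 passed in each of these fits.

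In CISP and ETP, edgeR called 0 of the 10 genes, and DESeq2 also called 0. An unadjusted p under 0.05 was found for 3 genes in CISP (BTG2, PLK2 and GDF15) and for 3 in ETP (CDKN1A, PLK3 and PLK2), against 6.65% and 4.28% of all genes. The edgeR slopes of BTG2 and PLK2 in CISP were 0.28 and 0.29, of a size with the slopes called in AFB1. Over all genes the test called 0% up in CISP and 0.0796% in ETP, so there were almost no calls for any gene in these chemicals.

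None of the 10 genes was called in a non-DDI chemical by edgeR or DESeq2. In COL 5.13% of all genes rose, a share close to that of MMS, while the 10 genes had slopes from -0.14 to 0.26 and 0 had an unadjusted p under 0.05, against 23.4% of all genes. The share of all genes called up was 0% in 2DG, 0.0145% in ASC, 0% in AMP and 0.0362% in NaCl. At an unadjusted p under 0.05 there were 0 of the 10 in 2DG and NaCl (1.53% and 4.63% of all genes), 1 in AMP (GDF15, slope 0.54; 3.03% of all genes) and 2 in ASC (PLK2 at 0.21 and CDKN1A at -0.16), where 14.2% of all genes had one.

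**Figure D3:**
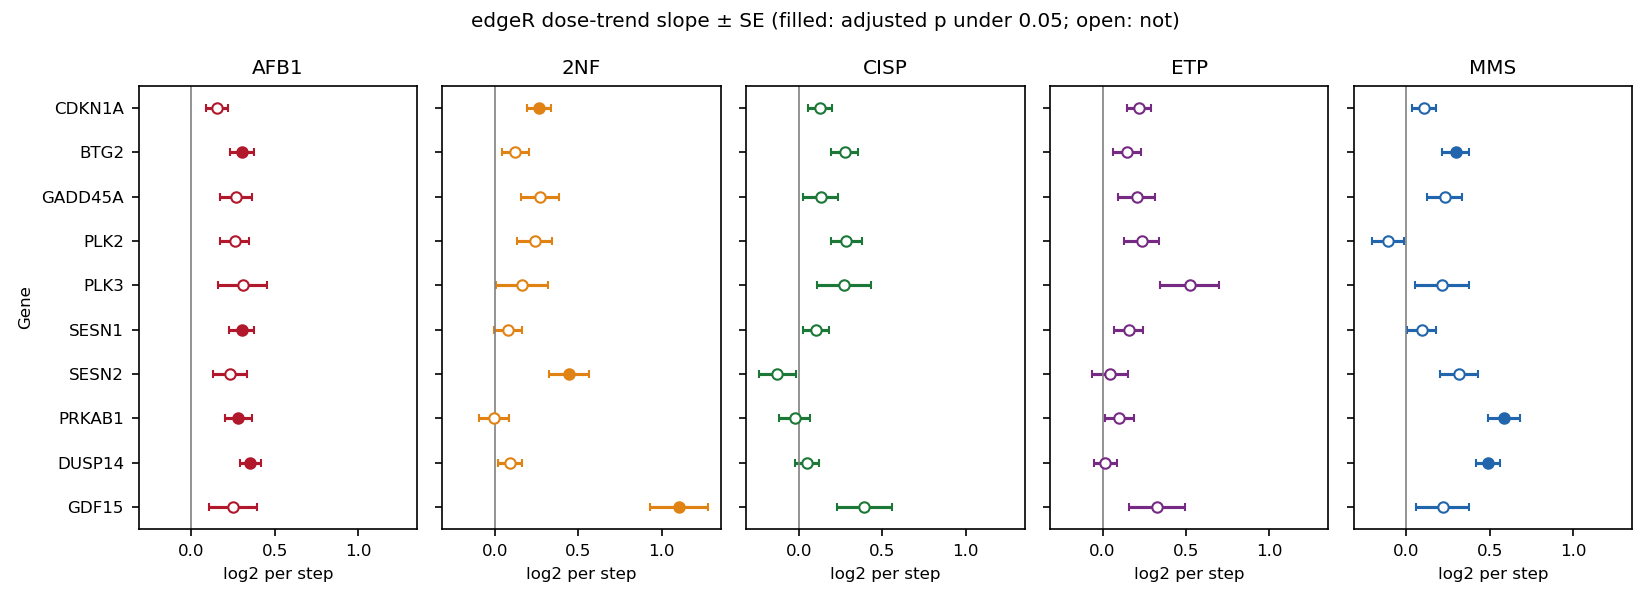
edgeR slope of each gene in log2 units per concentration step (horizontal axis) in the 5 DDI chemicals, with bars of 1 SE, filled where the adjusted p was under 0.05. The filled points are DUSP14, BTG2, SESN1 and PRKAB1 in AFB1, GDF15, SESN2 and CDKN1A in 2NF and PRKAB1, DUSP14 and BTG2 in MMS.

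The DDI chemicals differed in the slopes of some of these genes. A test of whether the 5 DDI slopes are equal, added after the slopes were seen, was passed by PRKAB1 (edgeR adjusted p = 0.0157) and DUSP14 (adjusted p = 0.00760), against 4.09% of all genes. For the other 8 genes the adjusted p was 0.0874 (GDF15) or more. Of 3 pairs of chemicals compared, 2NF and MMS differed in 3 genes, against 1.82% of all genes. GDF15 had the steeper slope in 2NF, by 0.88 log2 units per step (SE 0.23, adjusted p = 0.0450). PRKAB1 and DUSP14 had the steeper slope in MMS, with differences of -0.59 (SE 0.13, adjusted p = 0.0123) and -0.40 (SE 0.10, adjusted p = 0.0360) for 2NF minus MMS. Between 2NF and AFB1 (0.159% of all genes called) and between MMS and AFB1 (0.746%) 0 of the 10 genes were called by edgeR, and this test was not run with another tool. At an unadjusted p under 0.05 there were 3 of them in the first pair (GDF15, PRKAB1 and DUSP14) and 2 in the second (PLK2 and PRKAB1). The share of all genes with an unadjusted p under 0.05 was not computed for these pairs, so these counts have no background. The difference in GDF15 between 2NF and AFB1 was 0.85 (SE 0.23).

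The question of the design is whether DDI chemicals differ from non-DDI chemicals. Over all concentrations, the mean DDI slope was above the mean non-DDI slope for each of the 10 genes, by 0.08 (PLK2) to 0.31 (GDF15) log2 units per step, with a median of 0.21 against -0.0063 for all genes. The error in this test is the scatter of libraries around each chemical's own line, not the spread between chemicals. It therefore covers these 10 chemicals only. The difference passed in 4 genes, against 2.09% of all genes. They were BTG2 with 0.26 (SE 0.05, adjusted p = 0.00172), DUSP14 with 0.22 (SE 0.04, adjusted p = 0.00198), CDKN1A with 0.21 (SE 0.04, adjusted p = 0.00333) and PRKAB1 with 0.20 (SE 0.05, adjusted p = 0.0233). GDF15, whose difference was the largest, had an SE of 0.10 and an adjusted p of 0.0678 by edgeR. PRKAB1 did not pass without AFB1 (0.18), MMS (0.10), ASC (0.20), AMP (0.19) or NaCl (0.21). The GDF15 difference was 0.15 without 2NF and 0.21 without 2DG, so that its size rests on 2NF and, to a lesser extent, on 2DG. The 2DG slope of GDF15 was -0.27, and its control held the highest GDF15 level of all controls (255 RPM). GDF15 passed without CISP (0.33), ETP (0.34), MMS (0.37) or AMP (0.41), and SESN2 passed without CISP (0.27). Over linear concentration 2 genes passed, BTG2 and DUSP14.

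CDKN1A and BTG2 were the genes in which all 5 DDI chemicals lay above all 5 non-DDI chemicals, at mid (0.782% of all genes) and at high (0.912%). At low this held for 0 of the 10 genes and for 0.210% of all genes. At high CDKN1A had log2 ratios of 0.29 (MMS) to 0.76 (2NF) in DDI chemicals and -0.47 (ASC) to 0.07 (NaCl) in non-DDI chemicals, with means of 0.55 ± 0.20 and -0.09 ± 0.22 (SD, n = 5). BTG2 had 0.36 (2NF) to 0.93 (AFB1) against -0.41 (AMP) to 0.18 (COL), with means of 0.67 ± 0.25 and -0.06 ± 0.26 (SD, n = 5). DUSP14 overlapped in 1 chemical only, ETP, at -0.02. GDF15 overlapped widely, since AMP (1.52) was above each DDI chemical but 2NF and COL (1.04) was above CISP and MMS, with class means of 1.34 ± 1.11 and 0.51 ± 0.86 (SD, n = 5). At mid CDKN1A had means of 0.46 ± 0.16 and -0.12 ± 0.19, and BTG2 of 0.49 ± 0.22 and -0.19 ± 0.19 (SD, n = 5). Against the mean of the controls of the same vehicle, the number of genes without overlap was 1 at mid and 4 at high. CDKN1A was the gene lost at mid, with 0.129 in AFB1 and 0.132 in AMP, and PRKAB1 and DUSP14 were gained at high. At low the class means differed by -0.30 (PLK3) to 0.19 (SESN1).

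**Figure D4:**
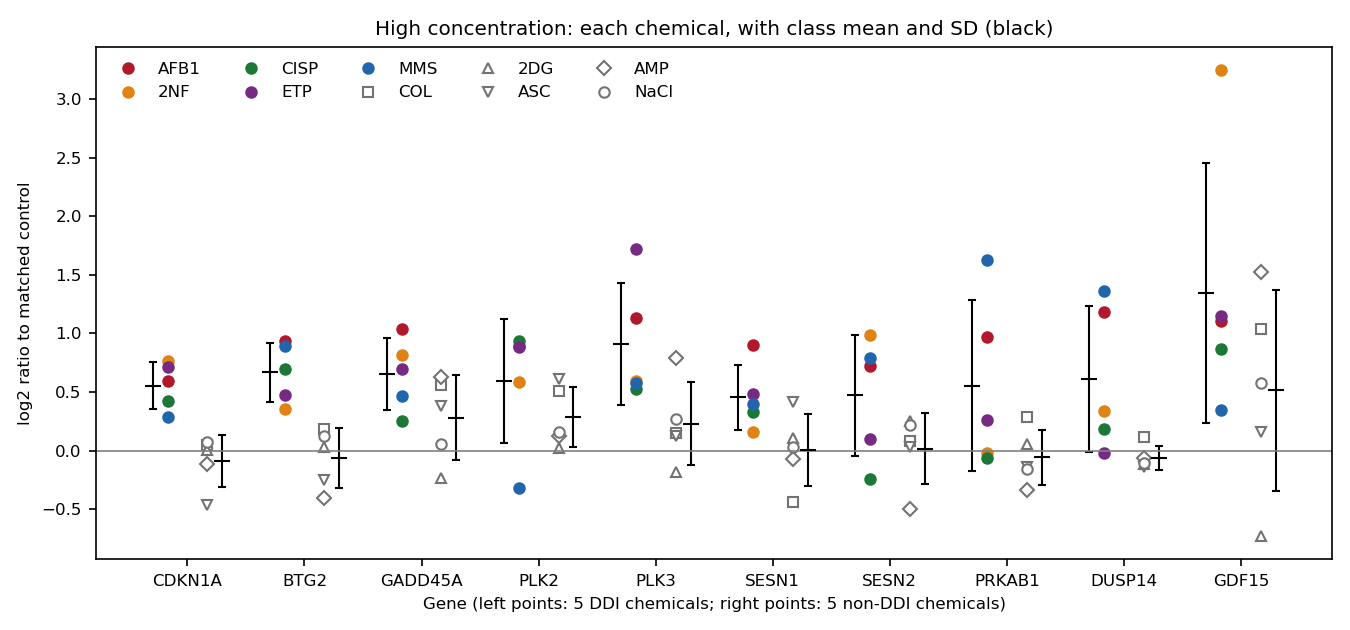
Log2 ratio to the matched control at the high concentration for each gene, with 5 DDI chemicals on the left and 5 non-DDI chemicals on the right of each name and the class mean with SD in black. CDKN1A and BTG2 have no overlap between the classes, 2NF lies far above the rest in GDF15, and MMS lies below 0 in PLK2.

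In a fit per concentration, with 5 chemicals a class, 9 controls and 8 residual degrees of freedom, edgeR called 0 of the 10 genes at each level. At high 0.0515% of all genes were called up, at mid 0% and at low 0%. The number with an unadjusted p under 0.05 was 7 at high, 3 at mid (CDKN1A, BTG2 and DUSP14) and 0 at low, against 7.85%, 5.75% and 2.26% of all genes. BTG2 had the smallest p at high, with a difference of 0.70 (SE 0.14, edgeR adjusted p = 0.0894), followed by CDKN1A with 0.58 (SE 0.14, adjusted p = 0.185) and DUSP14 with 0.72 (SE 0.21, adjusted p = 0.336). DESeq2 on the same design called BTG2 at mid, and BTG2 and CDKN1A at high. Without the 9 controls as blocks, edgeR called BTG2, CDKN1A and DUSP14 at high.

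The genes were also compared by their pattern over the 30 treated libraries, as Pearson's r of the log2 ratios, a description over points that share controls. PRKAB1 and DUSP14 were the closest pair (r = 0.90), followed by GDF15 and GADD45A (r = 0.80), BTG2 and DUSP14 (r = 0.69) and CDKN1A and BTG2 (r = 0.69). The median over 45 pairs was 0.38 and the lowest value was -0.28, between PLK2 and PRKAB1. Over 11562 genes that reached 10 counts in each of the libraries, the closest to CDKN1A were BAX, an apoptosis effector (r = 0.84), and DDB2, a nucleotide excision repair gene (r = 0.84), followed by CEP250, CEACAM1 and CDC45 (r = 0.83, 0.82 and 0.82). Closest to BTG2 was TRAF4 (r = 0.87). GDF15 was closest to FOSL1 (r = 0.86) and ATF3 (r = 0.83), both stress-responsive transcription factors, and SESN2 to IFI30 (r = 0.89). PPM1D, the phosphatase that switches p53 off, was the fourth closest to DUSP14 (r = 0.86).

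Other genes of the pathway were counted in the same fit, for the difference of mean DDI and non-DDI slopes. Of 22 other p53 targets 11 rose more in DDI chemicals and 0 less, against 2.09% and 2.64% of all genes. The median was 0.21, equal to that of the 10 genes. The 11 included FDXR with 0.41 (SE 0.06), FAS with 0.29 (SE 0.04) and DDB2 with 0.28 (SE 0.04). Of 8 p53 regulators tested, 2 rose more, PPM1D with 0.24 (SE 0.05) and the p53 relative TP73 with 0.34 (SE 0.08), while MDM2 had 0.25 (SE 0.09, edgeR adjusted p = 0.147). In AFB1 14 of the 22 targets rose, in 2NF 9, in MMS 7 and in COL 2. The shares of all genes were 2.36%, 4.30%, 5.10% and 5.13%, so the COL count was close to its share. PPM1D followed the PRKAB1 and DUSP14 pattern, with slopes of 0.39 in AFB1 and 0.40 in MMS (SE 0.07 and 0.08), both called, and 0.07 in 2NF (SE 0.08).

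Of 12 genes for kinases, cyclins and PCNA, the proteins that p21 binds, 3 rose more in DDI than in non-DDI chemicals and 0 less. They were CDK1 with 0.45 (SE 0.06), PCNA with 0.31 (SE 0.05) and CCNA2 with 0.33 (SE 0.08). Of all genes, 2.09% rose more in DDI chemicals. By chemical, 6 of the 12 rose in 2NF, 4 in COL, 3 in AFB1 and 3 in MMS. Of 16 mitotic and E2F genes 7 rose more and 0 less, among them RRM2 with 0.59 (SE 0.09) and TYMS with 0.40 (SE 0.06), genes of nucleotide supply, and the repressor E2F7 with 0.50 (SE 0.08). In 2NF 12 of these 16 rose, in AFB1 8, in COL 8 and in MMS 6. The shares of all genes were 4.30%, 2.36%, 5.13% and 5.10%. Of the 4 other CDK inhibitors tested, 0 were called for the class difference by edgeR or DESeq2, and 0 had an unadjusted p under 0.05. By chemical 1 of them was called, CDKN2B in AFB1 with 0.20 (SE 0.06), where 2.36% of all genes rose.

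Of 11 ATF4 targets tested 0 were called for the class difference by edgeR or DESeq2. At an unadjusted p under 0.05 there were 2 (PSAT1 and SLC7A11), a count close to the 17.0% of all genes. By chemical, 5 rose in 2NF, 4 in MMS and 0 in AFB1. The shares of all genes that rose were 4.30%, 5.10% and 2.36%. In COL 1 of the 11 fell, against 7.21% of all genes. TRIB3 rose in 2NF by 0.58 (SE 0.16) and in MMS by 0.42 (SE 0.14), ATF3 rose in 2NF by 0.87 (SE 0.24), and ATF4 itself rose in MMS (0.46). Among 10 paralogs edgeR called 0 higher and 1 lower for the class difference, SESN3 with -0.16 (SE 0.04), and DESeq2 called 1 higher and 2 lower. By chemical, edgeR called 2 paralogs up in 2NF, against 4.30% of all genes, and 1 down in AFB1, against 3.21%. In MMS 1 was up and 2 were down, against 5.10% and 10.4%. In COL 1 was up and 2 were down, against 5.13% and 7.21%. With 10 paralogs, counts of 1 or 2 lie close to these shares. SESN3 fell in MMS by 0.77 per step (SE 0.07), and PLK1, the mitotic relative of PLK2 and PLK3, rose in 2NF, MMS and COL by 1.03, 0.61 and 0.81. For the class difference 1 of 13 AMPK subunits and sestrin partners was lower in DDI chemicals, against 2.64% of all genes, and 0 were higher. The 1 was PRKAG2, an AMPK γ subunit, with -0.35 (SE 0.06), while the β2 gene PRKAB2 had 0.07 (SE 0.05). Of 5 MAP kinase pathway genes tested 0 were called for the class difference by edgeR or DESeq2, with 0 at an unadjusted p under 0.05. By chemical 1 was called, MAPK3 in 2NF with 0.23 (SE 0.07), where 4.30% of all genes rose. GFRAL, the GDF15 receptor, and its partner RET were too low to be tested.

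Hepatocyte markers moved with the same chemicals. The summed level of 10 such genes was 25888 to 50196 RPM in the controls, 4461 (MMS at 100 µM) to 46668 RPM in DDI libraries and 21160 to 51148 RPM in non-DDI libraries. Of the 10, 5 fell in AFB1, 5 in 2NF, 8 in MMS and 7 in COL, against 3.21%, 4.45%, 10.4% and 7.21% of all genes. For the class difference 4 fell, against 2.64% of all genes, among them TTR with -0.39 (SE 0.07). COL is the chemical in which these markers fell and none of the 10 genes was called. Cholangiocyte markers summed to 473 to 1477 RPM in the controls, 308 to 1387 RPM in DDI and 1010 to 1404 RPM in non-DDI libraries, and KRT7, EPCAM and CFTR were under 1 RPM everywhere. Of 5 tested, 3 fell in MMS (median slope -0.53), 2 fell and 1 rose in 2NF, 1 fell in COL and 0 were called in AFB1, and SOX9 was lower for the class difference. Immune, endothelial and stromal markers summed to 185 to 317 RPM over all libraries, with PTPRC and MS4A1 at 0, and CD3E, VWF and LYZ under 1 RPM. Of 5 tested, 3 fell in MMS (median slope -0.37), 1 fell and 1 rose in 2NF, 1 rose in AFB1 and 1 in COL, 1 fell in ASC, and ACTA2 was higher for the class difference. The part of these marker levels in the results for the 10 genes was not tested.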

How the data were processed

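Each of the 39 libraries was made from RNA pooled from 3 HepaRG™ cultures with a targeted panel of 1 amplicon per gene. The authors aligned the reads with TMAP to the panel's transcripts (hg19), pooled the chips by barcode and deposited counts per target. They also deposited RPM, the counts scaled to the library total with no further normalization. RPM recomputed from the counts differed by at most 0.000538. The 10 spike-in targets were at 0 and were left out. Groups, concentrations and matched controls came from the labels. Library totals had a median of 11202013 counts, and standard errors from counts cover counting error only. With 1 library per condition, p-values measure the spread around the fitted trends or class means, part of which may be technical.

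Ratios were taken on log2(RPM + 1). Trend and class tests used edgeR 4.0.16 (TMM, filterByExpr, quasi-likelihood F test) in R 4.3.3 on the counts, with Benjamini-Hochberg adjustment over all genes tested and a threshold of 0.05. Trend contrasts for a class are the mean of its 5 slopes. The scripts were tested on simulated data. Alternatives were DESeq2 1.42.0, other size factors and filters, linear concentration, another pseudocount of 0.1, other controls and leaving out libraries or chemicals. The tests of slope differences, the values above all controls and the promoter pairs were added after the data were seen. The members and gene lists were chosen with earlier results of these data known. The lists were p53 regulators, other p53 targets, proteins bound by p21, other CDK inhibitors, mitotic and E2F genes, ATF4 targets, paralogs, AMPK subunits and sestrin partners, MAP kinases with the GDF15 receptor, and 3 marker lists. Of each list the genes with the lowest p for the class difference were named, with MDM2, and for CDKN1A the 5 genes with the most similar pattern. TRIB3, ATF3, ATF4, CDKN2B, MAPK3 and the similar genes of the other members were named after their values were seen. PLK1 is in 2 lists, and 1 gene that the rule would name is not reported here. Python 3.11.15 with numpy 2.4.6, pandas 2.3.3 and matplotlib 3.10.9 was used for the rest.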

Additional observations from a re-analysis of the deposited data

Results flagged for a closer look

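In groups of 4 or 5 libraries, the highest or lowest value was set against the others by Dixon's criterion, and 6 of 80 groups had such a value, where chance gives about 1 in 20. GDF15 in 2NF at high, with a log2 ratio of 3.25, stood above the other 4 DDI chemicals, and PRKAB1 in MMS at mid, with 1.70, likewise. PLK2 in MMS at high, with -0.32, stood below the other DDI chemicals, and SESN2 in AMP at mid, with -0.49, below the other non-DDI chemicals. Among controls, SESN2 in the AMP control (78.0 RPM) was above the other media controls, and PRKAB1 in the control shared by AFB1 and COL (30.1 RPM) was below the other DMSO controls. That control is the base of the AFB1 ratios of PRKAB1.

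Mean slopes differed between DDI and non-DDI chemicals, in log2 units per step, for CDKN1A (0.21), BTG2 (0.26), PRKAB1 (0.20) and DUSP14 (0.22). Slopes differed between 2NF and MMS for GDF15 (0.88), PRKAB1 (-0.59) and DUSP14 (-0.40, 2NF minus MMS). These 2 chemicals also differed in vehicle and in the fold of concentration per step.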

How the results depend on the processing

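None of 420 alternative values of slopes and class differences had the opposite sign. Slopes of single chemicals were covered only for genes called in the main test, so slopes near 0 were not among them. Of single log2 ratios to the matched control, 60 of 300 had the opposite sign against the mean of the controls of the same vehicle. The MMS ratios could not change here, because the 1 water control is also their matched control. Of these 60, 2 were 1.5-fold or more from their control, GDF15 in 2DG at mid (-0.88, then 0.19) and at high (-0.73, then 0.34). Of 226 alternative counts and percentages, 214 stayed near their value. With 1 library left out, the genes called were 0 to 4 in AFB1 (0 without the 2.5 µM library), 0 to 3 in 2NF and 1 to 3 in MMS (0 and 1 without their controls). Over linear concentration the count was 0 in 2NF and 2 for the mean trend of the classes, which gave 3 to 6 with 1 chemical left out. Per level, DESeq2 called 1 gene at mid and 2 at high, and edgeR without control blocks 3 at high. The non-DDI share of values 1.5-fold above control was 3.33% to 10.0% with 1 chemical left out (3.33% without AMP), and the DDI share 31.7% to 38.3%. Genes without overlap of the classes numbered 1 at mid and 4 at high against the mean of the controls of the same vehicle, and 5 at high against the mean of all 9 controls, and 2 to 3 at either level with 1 chemical left out. The cause of these changes was not tested, other than fewer libraries in the fits that leave one out. Of values for single genes, 25 lost and 12 gained significance and 383 kept their side. Counts limit PLK3 most. No paired analysis was possible because the labels carry no replicate numbers that groups share, and each condition is 1 library. The matched control sets were blocks in the fits.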
